A study of Danio rerio with 34 samples.

Results

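In the zebrafish, the transition from the freshly fertilized egg to the 1-cell embryo is the first step of development, and it takes place without transcription of the embryo's own genome. The mRNAs present are maternal: they were made by the mother, stored in the egg, and are translated, localized and later cleared on command. Folding of an mRNA can cover or expose the stretches that ribosomes, RNA-binding proteins and small RNAs contact, which is why structure was profiled in the living embryo at these stages.

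RNA structure was measured by icSHAPE, in which the reagent NAI-N3 enters living embryos and attaches to the ribose of flexible, mostly unpaired nucleotides, where reverse transcriptase then stops. Embryos given the solvent DMSO provided the background of stops. The result is a reactivity for each nucleotide from 0, unreactive, to 1, most reactive, so that a higher value is called open and a lower value closed below. The profiles compared are those of the fertilized egg at 0 h post fertilization (h.p.f.) and of the 1-cell embryo at 0.4 h.p.f., both from untreated, genetically normal embryos of the AB strain obtained by natural spawning, 500 whole embryos pooled per stage and condition. Each stage has 1 deposited profile, made from combined NAI-N3 and DMSO libraries, so there is no spread between replicates, no test was possible, and "opened" or "closed" means past a fixed size. Each value is an average over the copies of a transcript in the mRNA purified from the pooled embryos. A large change in some copies and a smaller change in all of them thus cannot be told apart. Whether the purification recovered the same share of copies at both stages was not tested.

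The egg profile listed 6684 transcripts and the 1-cell profile 7446, of 9107 listed at 1 or more of the 6 stages of the series. Both listed 6589, and 3835 of these, from 3680 genes or unnamed records, had a value at over 50% of their nucleotides at both stages. These 3835 are described here, with 6837360 nucleotides valued in both profiles. Their levels in the profiles were 62.4 RPKM (reads scaled to transcript length and library size, median, with a range of 12.9 to 6502) in the egg and 64.4 RPKM (12.9 to 5385) at the 1-cell stage. All 7 maternal markers looked up, among them buc and zp3, were listed at both stages, and none of 7 zygotic markers, among them tbxta, gsc and chrd, was listed at either, against 6 of the 7 at the shield stage (6 h.p.f.).

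Reactivity rose in nearly every transcript. The median transcript mean was 0.297 in the egg and 0.345 at the 1-cell stage, the median difference was 0.0473, and 78 transcripts (2.03%) were lower at the 1-cell stage. This common rise was taken as the shared shift and subtracted, and the remainder is given below as the centred change. It was narrow: 79.4% of transcripts lay within 0.02 of the shared shift, and the central 90% ran from -0.034 to 0.0247. The SD of the centred change over transcripts was 0.0191 in this interval, and in the other intervals of the series it was 0.0196 from 1-cell to 4-cell, 0.0135 from 4-cell to 2 h, 0.0153 from 2 h to sphere and 0.0193 from sphere to shield. The correlation of single nucleotides was the lowest of the 5 intervals, with r = 0.740 over all nucleotides against 0.780 to 0.852 in the other intervals. These r values are descriptions over neighbouring, dependent nucleotides of 1 pair of profiles each.

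**Figure D1:**
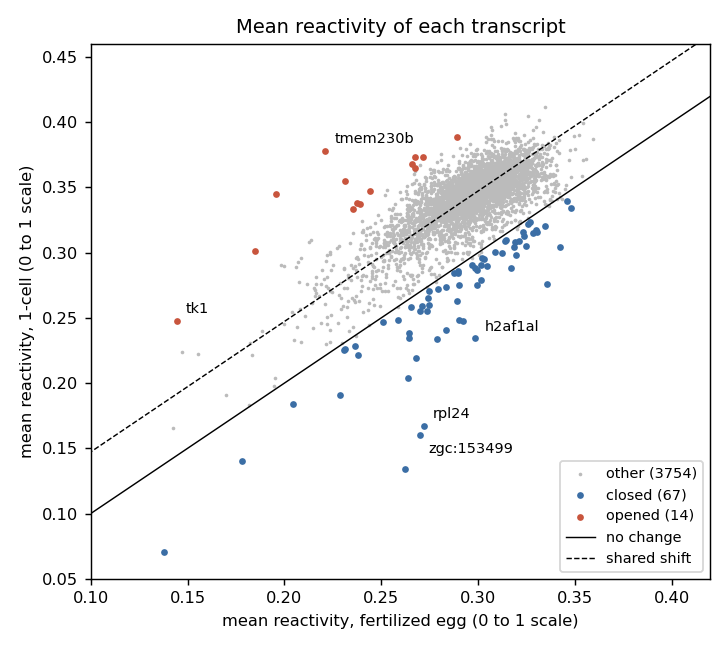
Mean reactivity of each of the 3835 transcripts in the fertilized egg (x axis) and the 1-cell embryo (y axis), both on the 0 to 1 scale and over the same nucleotides. The solid line marks no change and the dashed line the shared shift of 0.0473, and the 14 transcripts opened and 67 closed past 0.05 beyond that shift stand in red and blue.

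Past a centred change of 0.05, 14 transcripts (0.365% of those compared) were opened and 67 (1.75%) were closed, 81 in all (2.11%). The closest on either side of the opening limit were pcbd1 at 0.0505 and atp5f1b at 0.0499, and on either side of the closing limit ndufa8 at -0.0506 and brk1 at -0.04996. Since the limit exceeds the shared shift, all 67 closed transcripts were also lower without centring, with a median of 0.290 in the egg and 0.275 at the 1-cell stage, while the opened went from 0.238 to 0.351. For scale, 119 genes had more than 1 RefSeq transcript among those compared, and the centred changes within a gene lay 0.0159 apart in the median and up to 0.069 apart in 95% of these genes, although such transcripts share much of their sequence and reads.

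The transcript opened most had a low egg value that reached the ordinary 1-cell level. tmem230b, which encodes a transmembrane protein, had a mean reactivity of 0.221 in the egg and 0.378 at the 1-cell stage, a centred change of 0.11 over 823 nucleotides. It opened along nearly its whole length and not at 1 site, as 9 of its 10 segments of 100 nt rose more than the shared shift.

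nubp1, which takes part in assembling iron-sulfur clusters in the cytosol, had 0.231 in the egg and 0.355 at the 1-cell stage. tk1, the thymidine kinase that salvages thymidine for DNA synthesis, stayed the least reactive of the set in both profiles, at 0.145 and 0.248, and all 18 of its segments were above the shift. dctpp1, an enzyme that removes excess dCTP, had 0.271 and 0.374, and rnaseh2a, the catalytic subunit of RNase H2, had 0.235 and 0.333. larp7, the protein that binds and stabilizes 7SK RNA, was the most abundant of the set at 208 RPKM and had 0.289 and 0.389. gps2, a subunit of a nuclear receptor corepressor complex, had 0.239 and 0.337, and pcbd1, a pterin dehydratase, had 0.267 and 0.365. The 12 highest, with 1 transcript per gene, also held rmp24 (0.266 and 0.368) and the RefSeq records NM_001082938 (0.268 and 0.373) and NM_001077795 (0.244 and 0.347), which have no gene symbol in the table used. For a gene with several transcripts the one with the most valued nucleotides was taken, which left out a short record of ppp1r7, a regulatory subunit of a protein phosphatase: it had 0.185 and 0.301, a centred change of 0.0694, while the longer record had 0.332 and 0.374, a centred change of -0.00506.

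Opened transcripts were low in the egg, and their 1-cell median of 0.351 was close to the 0.345 of all transcripts. The call subtracts the egg mean, so a low egg value is in part built into the choice. Of the 14, 13 were in the lowest of 5 groups ranked by egg mean. With a straight-line fit on the egg mean 6 transcripts were opened. In the 14 opened transcripts the share of nucleotides at exactly 1, the top of the scale, moved too. The median share was 2.08% in the egg and 4.34% at the 1-cell stage, against 4.75% and 4.65% over all transcripts. It rose in all 14, and in 26.3% of all transcripts. Values at 1 enter the mean used for the call, so part of this follows from the choice. Whether the scaling of these profiles has a part in the opening was not tested. Among the 2898 transcripts with 4 to 6% of their nucleotides at 1 in both profiles, a limit set after seeing the data, 0 were opened and 17 were closed. Among all 3835, 14 (0.365%) were opened and 67 (1.75%) closed, so all 14 opened transcripts and most of the closed ones lay outside this group.

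Some of the transcripts closed most lay below the shift in all their segments. zgc:153499 had 0.270 in the egg and 0.161 at the 1-cell stage, with all 7 segments below the shift. rpl24, a protein of the large ribosomal subunit, had 0.272 and 0.167 at 529 and 376 RPKM, with all 5 segments below it, of which its first 50 valued nucleotides went from 0.271 to 0.305. tomm20a, the import receptor of the outer mitochondrial membrane, had 0.264 and 0.204, with all 9 below. In these transcripts the share of nucleotides at 1 fell too, from 2.17% to 0.289% in zgc:153499, from 3.35% to 0.986% in rpl24 and from 2.37% to 0% in tomm20a. The share was lower at the 1-cell stage in 56 of the 67 closed transcripts and in 53.2% of all transcripts. Values at 1 enter the mean used for the call, so part of this difference follows from the choice.

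Others kept about the same share of nucleotides at 1 and changed by region. Such a share is usual, as 2898 of the 3835 transcripts had 4 to 6% of nucleotides at 1 in both profiles. The part of the authors' scaling in it was not tested. h2af1al, a gene of the H2A histone family and the most abundant transcript compared (6502 RPKM in the egg and 5385 at the 1-cell stage), had 0.299 and 0.235, a centred change of -0.111. Its first 100 nt went from 0.484 to 0.527 while its other 4 full segments all fell, and the 29 valued nucleotides after them went from 0.283 to 0.0991. NM_001017593, at 2061 and 2104 RPKM, had 0.268 and 0.219 with 5.07% of nucleotides at 1 in both profiles. gtf2a2, the small subunit of the general transcription factor TFIIA, had 0.2995 and 0.275 with 4.99% at 1 in both. In gtf2a2 the 5′ end opened and the 3′ end closed: its first 100 nt went from 0.324 to 0.626 and nucleotides 601 to 700 from 0.371 to 0.164.

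Of the 39 closed transcripts with at least 500 valued nucleotides and 20 RPKM in both profiles, the 12 lowest, with 1 transcript per gene, also held spint1b (0.279 and 0.234) and spink2.1 (0.292 and 0.248), which encode serine protease inhibitors, anapc15 (0.317 and 0.289), a subunit of the anaphase-promoting complex, vamp4 (0.264 and 0.238), a SNARE of vesicle fusion, lsm5 (0.320 and 0.298), a subunit of the LSm ring that binds U6 RNA or decaying mRNA, and prdx3 (0.205 and 0.184), the mitochondrial peroxiredoxin. Of these, spint1b was the longest at 2405 nt, and 23 of its 24 segments lay below the shift.

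Closed transcripts were short. Their median length was 771 nt against 1845 nt over all, and 41 of the 67 were under 1000 nt, as were 538 of all 3835 transcripts (14%). Of transcripts under 1000 nt 7.62% were closed, and of longer ones 0.789%. When transcripts were ranked by length into 5 equal groups, the median centred change went from -0.00839 in the shortest to 0.0053 in the longest, and the SD from 0.0267 to 0.0119. A short transcript has fewer nucleotides behind its mean and only a few 200-nt windows of the authors' scaling, and the part of either in these calls was not tested. Within transcripts the correlation of egg and 1-cell reactivity, a description over nucleotides, had a median of 0.740 and ran from 0.375 to 0.903, with a median of 0.669 in the least and 0.806 in the most abundant of 5 groups ranked by RPKM.

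At the later stages the extreme values did not persist. Of the 10 named opened transcripts with a 4-cell value, all 10 were lower at the 4-cell stage than at the 1-cell stage, and their median distance from the egg value was 0.0122, against 0.102 for the 1-cell value. Of the 12 named closed transcripts all 12 were higher at the 4-cell stage, and their median distance from the egg value was 0.0173, against 0.0454. rpl24, for example, had 0.272, 0.167, 0.277, 0.174, 0.242 and 0.268 at the egg, 1-cell, 4-cell, 2 h, sphere and shield stages, and dctpp1 had 0.272, 0.374, 0.246, 0.216, 0.303 and 0.313. These transcripts were chosen for extreme 1-cell values, so a return is in part built into the choice. From 1-cell to 4-cell the median difference over the 3867 transcripts valued in both was -0.0648. A fall in that interval is therefore not particular to the opened transcripts, and their distances from the egg value include it.

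**Figure D2:**
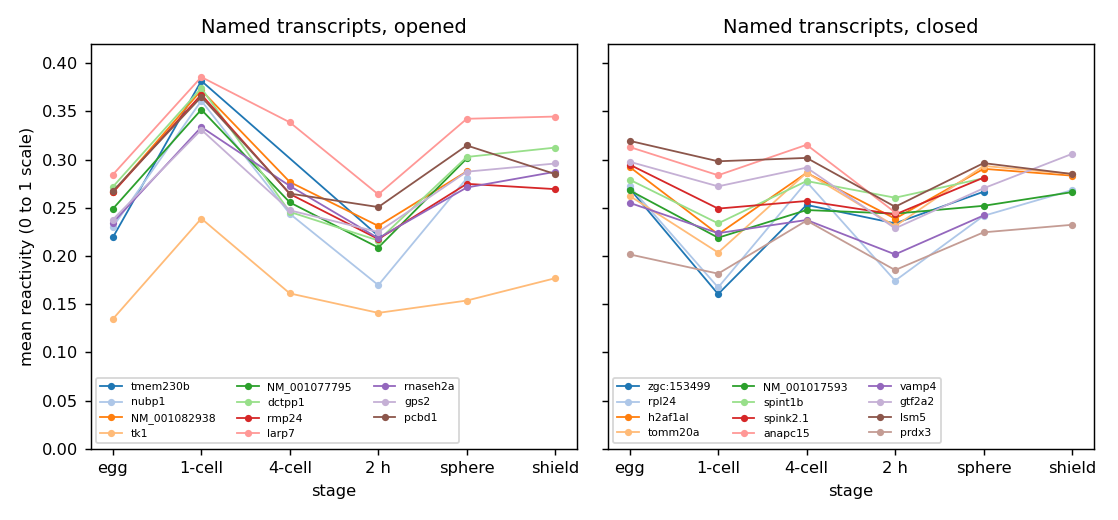
Mean reactivity (0 to 1 scale) of 11 of the 12 named opened and the 12 named closed transcripts, 1 per gene, at the 6 stages where over 50% of their nucleotides had a value, each over the nucleotides valued at all stages drawn. The 1-cell point is the highest of each opened line and lies below both its neighbours in each closed line.

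**Figure D3:**
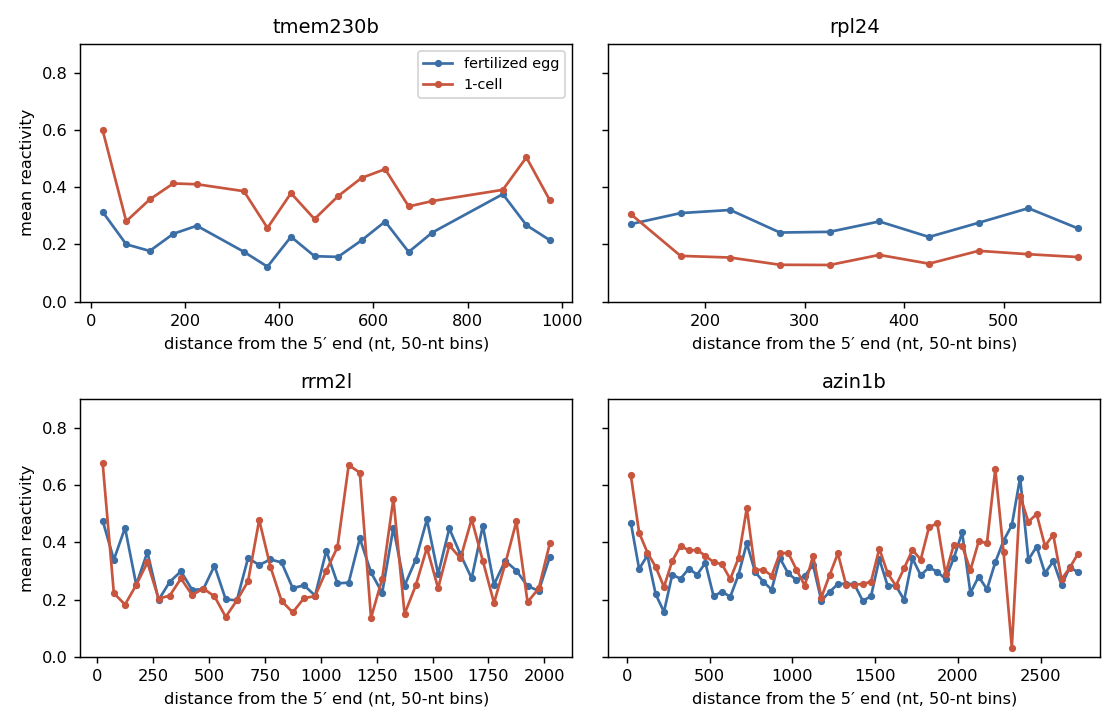
Mean reactivity in bins of 50 nt along 4 transcripts in the fertilized egg (blue) and the 1-cell embryo (red). tmem230b lies higher and rpl24 lower at the 1-cell stage along most of the transcript. In rrm2l and azin1b the largest changes lie in single regions, but other regions change too. In rrm2l, for example, nucleotides 101 to 200 go from 0.351 to 0.217 and 801 to 900 from 0.285 to 0.175.

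The largest mean change by position was at the 5′ end. The first 20 nt, valued at 14037 nucleotides, had a mean reactivity of 0.493 in the egg and 0.655 at the 1-cell stage, a rise of 0.162. The rise was 0.122 at nucleotides 21 to 40, 0.0837 at 41 to 60 and 0.0583 at 61 to 80, and then fell below the shared shift, to 0.034 at 101 to 120, and was 0.0455 at 181 to 200. In the first 20 nt 35% of nucleotides opened by more than 0.2 beyond the shift and 8.52% closed, against 13.8% and 12.2% of all nucleotides. Without centring, the shares over all nucleotides were 18.7% up and 9.13% down.

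The same was seen within transcripts. In the 2247 transcripts with at least 20 values in the first 60 nt, this end rose more than the interior, over 200 nt from either end, in 1647 (73.3%), with a median excess of 0.058. The excess was present in each of 5 groups ranked by RPKM, from 0.0326 in the least abundant to 0.07 in the most abundant. The share of nucleotides at exactly 1 in the first 60 nt went from 10.2% to 15.6%, and in the interior from 4.52% to 4.38%. Only 44.7% of positions in the first 60 nt had a value in both profiles, against 90.3% in the interior, and the part of these missing values in the rise was not tested.

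Across the 6 stages the 1-cell embryo had the most open 5′ ends. Over 55635 nucleotides of the first 60 nt valued at every stage, the mean was 0.352 in the egg, 0.459 at 1-cell, 0.304 at 4-cell, 0.290 at 2 h, 0.378 at sphere and 0.398 at shield. The interior of the same transcripts had 0.294, 0.342, 0.280, 0.249, 0.294 and 0.290. The 5′ end thus lay above the interior at each stage, and by the most at the 1-cell and shield stages.

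The 3′ end rose too, but slightly less than the interior. The last 100 nt rose by 0.0322, less than the shared shift, and 12.2% of its nucleotides closed, as over all nucleotides. In 3484 transcripts the stretch 33 to 92 nt from the end rose more than the interior in 41.6%, with a median excess of -0.0121. The most distal valued stretch, 21 to 40 nt from the end, did not rise, with 0.204 in the egg and 0.199 at the 1-cell stage. It held 34159 values, against 69754 at 41 to 60 nt, and the part of missing values in this was not tested. In the last 10% of the length the rise was 0.037, against 0.0512 in the part from 20 to 50% of the length.

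**Figure D4:**
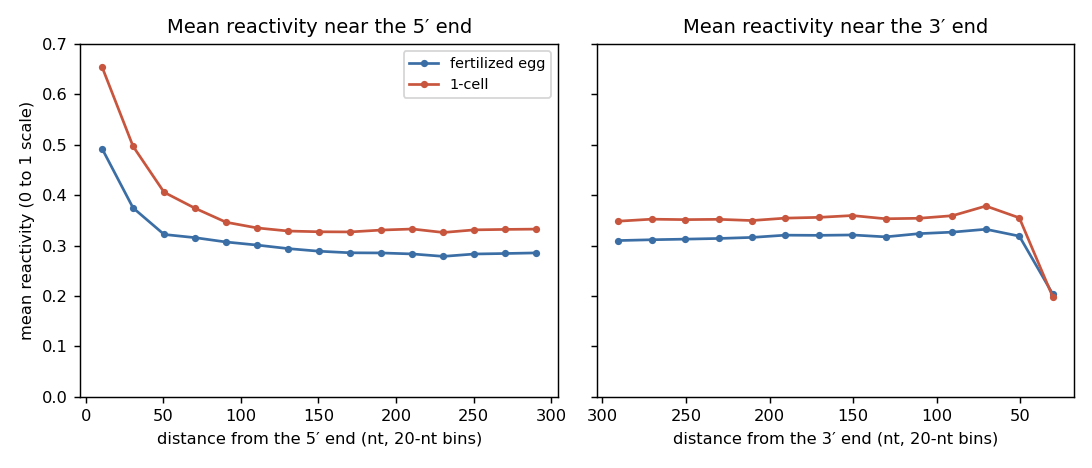
Mean reactivity (0 to 1 scale) in bins of 20 nt up to 300 nt from the 5′ end (left) and the 3′ end (right), in the fertilized egg (blue) and the 1-cell embryo (red). The lines are farthest apart in the first 20 nt, at 0.493 and 0.655, and meet 21 to 40 nt from the 3′ end. That bin holds 34159 values, against 69754 in the next, and the last 20 nt carry no value.

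The transcripts with the largest excess at the first 60 nt, picked after their values were seen, ranged in the egg from 38.4 RPKM, for eri1, to 1141 RPKM, for btg4. btg4, known from the mouse as an adaptor of the deadenylase complex that clears maternal mRNA, had 0.425 in the egg and 0.828 at the 1-cell stage in this stretch. orc1, the largest subunit of the origin recognition complex, had 0.334 and 0.738. ca7, a carbonic anhydrase, had 0.283 and 0.736, and gtf2a2 had 0.319 and 0.676. None of the 4 was opened as a whole: their centred changes over the full length lay between -0.0714 and -0.00539.

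Among the 15 gene lists with at least 5 transcripts valued there, the zona pellucida genes of the egg envelope had the lowest share. Of their 14 transcripts with a valued 5′ end, 2 rose more there than in their interior (14.3%, against 73.3% of all), and the median excess was -0.0486. These genes form families of near-identical copies whose reads can be split between records, so their separate values are uncertain. The highest shares were those of calcium signalling, 11 of 11, and of the regulators of maternal mRNA translation and decay, 24 of 27. Their medians were 0.08 and 0.0895. Proteasome subunits had 4 of 8 and a median of -0.00746. Among other lists below the share of all were mitochondrial ribosomal proteins (8 of 13) and the respiratory chain and ATP synthase (19 of 30).

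In windows of 10 nt, the shared shift was 0.0454 over 676962 windows. Past 0.2 beyond it, 12022 windows (1.78%) opened and 8834 (1.3%) closed, and without centring the shares were 4.405% and 0.515%. They were spread over most transcripts: 2458 transcripts had windows of both kinds, 249 had neither, and the median transcript had 2.78% of its windows past the limit. Of windows in the first 60 nt 12.3% opened and 1.32% closed. In the last 200 nt 1.74% opened and 2.74% closed, so that windows there made up 8.72% of all, 8.55% of the opened and 18.3% of the closed.

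The windows that opened most, in transcripts of at least 100 RPKM, were at 5′ ends in 7 of 10 cases. The first 60 nt held 1.4% of all windows and 9.69% of all opened ones. In orc1, nucleotides 21 to 30 went from a mean of 0.275 to 0.973. In the egg these 10 nucleotides read 0, 0.965, 0, 0.533, 0.286, 0.203, 0.39, 0, 0.235 and 0.142, and at the 1-cell stage 8 of them read 1 and the other two 0.969 and 0.761. In srsf7a, a splicing factor of the SR family, nucleotides 11 to 20 went from 0.296 to 0.976. In hnrnpa0l, an hnRNP gene at 2871 and 2547 RPKM, nucleotides 21 to 30 went from 0.2997 to 0.863, and in eef2b, elongation factor 2, which moves the ribosome along, nucleotides 11 to 20 went from 0.195 to 0.755. ctbp1l (0.219 to 0.776 at nucleotides 11 to 20), a transcriptional corepressor gene, ppil1 (0.234 to 0.856 at 21 to 30), a peptidyl-prolyl isomerase of the spliceosome, and manbal (0.314 to 0.871 at 51 to 60) were the others. At the later stages eef2b, for example, had 0.180 at 4-cell, 0.192 at 2 h, 0.409 at sphere and 0.610 at shield.

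The other three opened windows lay inside the transcript. In rrm2l, a gene of the small subunit family of ribonucleotide reductase, 60 nt from 1111 to 1170 opened together, from 0.296 to 0.799, although the transcript as a whole was closed (0.309 and 0.301, a centred change of -0.0556). Its window at 1151 to 1160 had 0.256, 0.893, 0.248, 0.260, 0.0462 and 0.194 over the 6 stages, so that the 1-cell stage alone was high. In NM_001017593, nucleotides 811 to 820 had 0.324, 0.979, 0.0221, 0.0695, 0.02 and 0.0156, and 9 of the 10 nucleotides read 1 at the 1-cell stage. In prrg4, a membrane protein with a Gla domain, nucleotides 1371 to 1380 had 0.116, 0.680, 0.0425, 0.0358, 0.0328 and 0.0285. In these 3 windows the egg value lay between the 1-cell value and the later ones for NM_001017593 and prrg4, and beside the 4-cell and 2 h values for rrm2l.

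The window that closed most was in azin1b, antizyme inhibitor 1, which raises polyamine levels by sparing ornithine decarboxylase. Nucleotides 2301 to 2310 went from 0.902 to 0.0745, a centred change of -0.873, at 135 and 158 RPKM. The 10 nucleotides read 1, 1, 1, 1, 0.783, 1, 0.695, 1, 0.698 and 0.841 in the egg and 0.133, 0.022, 0.17, 0, 0.102, 0.062, 0.06, 0.063, 0.107 and 0.026 at the 1-cell stage. All 10 thus turned from reactive to unreactive. The window had 1 at the 4-cell stage, 0.979 at 2 h, 0.377 at sphere and 0.249 at shield. Just upstream, 80 nt from 2191 to 2270 opened together, from 0.322 to 0.666, and 40 nt from 2281 to 2320 closed, so that a closing and an opening stretch lay side by side in a transcript whose overall centred change was 0.0103. Reactivity was scaled within windows of 200 nt, which both stretches shared.

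Of the 10 windows that closed most, 0 lay in the first 60 nt, which held 1.4% of all windows and 1.42% of all closed ones. The last 200 nt held 4 of the 10, against 8.72% of all windows and 18.3% of all closed ones. In sec61b, a subunit of the channel that moves proteins into the endoplasmic reticulum, nucleotides 891 to 900 of 968 went from 0.973 to 0.359. In cfl1, a cofilin that severs actin filaments, nucleotides 1001 to 1010 went from 0.940 to 0.334, and in p4hb, protein disulfide isomerase, nucleotides 2301 to 2310 went from 0.818 to 0.226. nup35, a nuclear pore protein, went from 0.562 to 0.0457 at 1491 to 1500, and nfyc, a subunit of the CCAAT-binding factor NF-Y, from 0.799 to 0.282 at 1991 to 2000. The others were gtf2a2 (0.809 to 0.277), rer1 (0.926 to 0.417), ube2g1a (0.709 to 0.209) and the kinase gene stk26 (0.990 to 0.466). Of these 10 windows 4 were nearer the egg than the 1-cell value at the 4-cell stage, against 8 of the 8 opened windows with a 4-cell value. These counts are not centred. From 1-cell to 4-cell the shared shift was -0.0648 and the first 60 nt changed by -0.159. Such a fall moves opened windows toward their egg value and closed ones away from it, and its part in the contrast was not tested.

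Most windows past the limit stood alone, 8038 of 9677 opened runs and 5822 of 6989 closed runs, and 462 opened and 391 closed runs were 3 windows or longer. Among transcripts of at least 20 RPKM, the longest were picked after their values were seen. fus, an RNA-binding protein gene, closed over 110 nt from 1811 to 1920 (0.441 to 0.188), at 33.8 and 36.4 RPKM. lef1, a transcription factor of the Wnt pathway, closed over 100 nt from 2091 to 2190 (0.672 to 0.319). cd82b, a tetraspanin, closed over 90 nt (0.597 to 0.275), and cnn3b, a calponin, over 80 nt (0.642 to 0.308) at 351 and 350 RPKM. Among the longest opened runs, of 80 nt, were those of zmym4.2 (0.313 to 0.753) and azin1b. Each run rests on 1 profile per stage.

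By their egg value, which draws both ends toward the middle in part by construction, single nucleotides moved as follows. Those at exactly 0 in the egg (8.1%) had a mean of 0.11 at the 1-cell stage, and 19.3% of them were at 0 again. Those at exactly 1 in the egg (4.61%) had a mean of 0.864, and 50.7% of them were at 1 again. Nucleotides between 0.4 and 0.6 in the egg hardly moved in the mean (0.489 and 0.499), but 16.8% of them opened and 24.6% closed past 0.2. The shared rise was largest in the middle of the distribution: the 10th percentile of all nucleotides went from 0.012 to 0.04, the median from 0.21 to 0.278, and the 90th percentile from 0.738 to 0.772.

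The 17 gene lists, which overlap in part, hold 484 of the transcripts. Of these 0 were opened, against 0.365% of all, and 16 closed (3.31%, against 1.75% of all). Ribosomal protein and respiratory chain lists had median lengths of 537 to 937 nt. Of all transcripts under 1000 nt 7.62% were closed, and the part of length in the list counts was not tested. The list medians lay between -0.0113 and 0.0132.

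The 7 listed genome activation and early transcription factors were all above the shared shift, as were 1917 of all 3835 transcripts, with a median of 0.0132 and a narrow range from 0.00102 to 0.0159. pou5f3 had 0.280 in the egg and 0.340 at the 1-cell stage, sox19b had 0.279 and 0.340, and nanog had 0.291 and 0.345. These 3 encode the maternal factors that activate the zygotic genome. smarca4a, the ATPase of a chromatin remodeller, was the highest, with 0.287 and 0.350.

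Proteasome subunits were above the shift in 11 of 17 transcripts, with a median of 0.0104. psmc3, an ATPase of the regulatory particle, had 0.206 and 0.289, and psma5, a subunit of the core ring, was the 1 closed, with 0.2996 and 0.287. Actin, tubulin and motor proteins were above it in 25 of 40, with 1 closed, the dynein light chain gene dynll2b (0.348 and 0.335).

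Cytosolic ribosomal proteins were split about the shared shift, 40 above and 43 below with a median of -0.00114. Their transcripts were short (median 537 nt), and transcripts under 1000 nt had a median of -0.00954. With a straight-line fit on the egg mean these medians were -0.00989 and -0.0109. They had the widest range of all lists. rpl6 had 0.208 and 0.296 and rpl4 had 0.260 and 0.346, while rpl24, rpl39 and 2 records of rpl29 were closed. These 4 were 4.82% of the list, against 7.62% of all transcripts under 1000 nt. The 2 rpl29 records, which differ little in length (357 and 360 nt), had centred changes of -0.0552 and -0.176, the largest difference within any gene, so their reads may not be assignable to 1 of them and both values are uncertain.

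Mitochondrial ribosomal proteins lay below the shift in 15 of 21 transcripts, with a median of -0.0113 and 2 closed (9.52%), a record of mrpl34 (0.229 and 0.191) and mrps25 (0.324 and 0.313). The mrpl34 record with more valued nucleotides was not closed. Subunits of the respiratory chain and ATP synthase lay below it in 34 of 53, with a median of -0.00834 and 4 closed (7.55%), against 7.62% of all transcripts under 1000 nt. Among these, ndufb11, of complex I, had the lowest values of all, 0.138 and 0.0708, at 20.1 and 19.2 RPKM and with 0.189% and 0% of nucleotides at 1. The closed record of atp5f1c had 0.251 and 0.247, while another record of the gene had 0.246 and 0.316, above the shift. The median lengths of both lists, 937 and 693 nt, were below that of all transcripts.

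Germ plasm and germ cell genes were below the shift in 8 of 10 transcripts, with a median of -0.011. buc, which organizes the Balbiani body and germ plasm, had 0.280 and 0.308, and dnd1, which protects germ cell mRNAs from microRNAs, had 0.283 and 0.309. tdrd7a, a Tudor protein of germ granules, was the highest, with 0.267 and 0.341. The maternal-effect genes of fertilization and cleavage, some of which are in that list too, were also below it in 8 of 10, with a median of -0.011, and the highest, prc1a, of the spindle midzone, was at the shift (0.293 and 0.342).

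Histones and stem-loop binding proteins were below the shift in 10 of 12 transcripts, with a median of -0.00943 and h2af1al closed. h1m, the maternal linker histone, at 3310 and 2928 RPKM, had 0.327 and 0.387, and slbp, which binds the stem-loop of histone mRNAs, had 0.337 and 0.359. Splicing factors were even, 34 above and 34 below, with sf3b6 (0.325 and 0.305) and a record of snrpg (0.283 and 0.241) closed, while the other snrpg record was at the shift (0.310 and 0.358). Cell cycle regulators of cleavage were below it in 15 of 23. ccnb2, a B-type cyclin, had 0.294 and 0.359, and chek2, a checkpoint kinase, had 0.311 and 0.339.

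The other lists were within 0.003 of the shift in the median. Among regulators of maternal mRNA translation and decay, 18 were above and 17 below, from ago1, an Argonaute, with 0.271 and 0.346, to cnot9, of the deadenylase complex, with 0.288 and 0.2998. Calcium signalling genes were split 8 and 8, with atp2a2a, a calcium pump of the endoplasmic reticulum, the highest (0.273 and 0.358). Zona pellucida genes were split 8 and 10, from zpax4 (0.278 and 0.338) to zp3 (0.250 and 0.271). Translation initiation factors were split 18 and 20 with eif4h closed (0.273 and 0.255), aminoacyl-tRNA synthetases 4 and 2, and heat shock and folding genes 18 and 18.

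**Figure D5:**
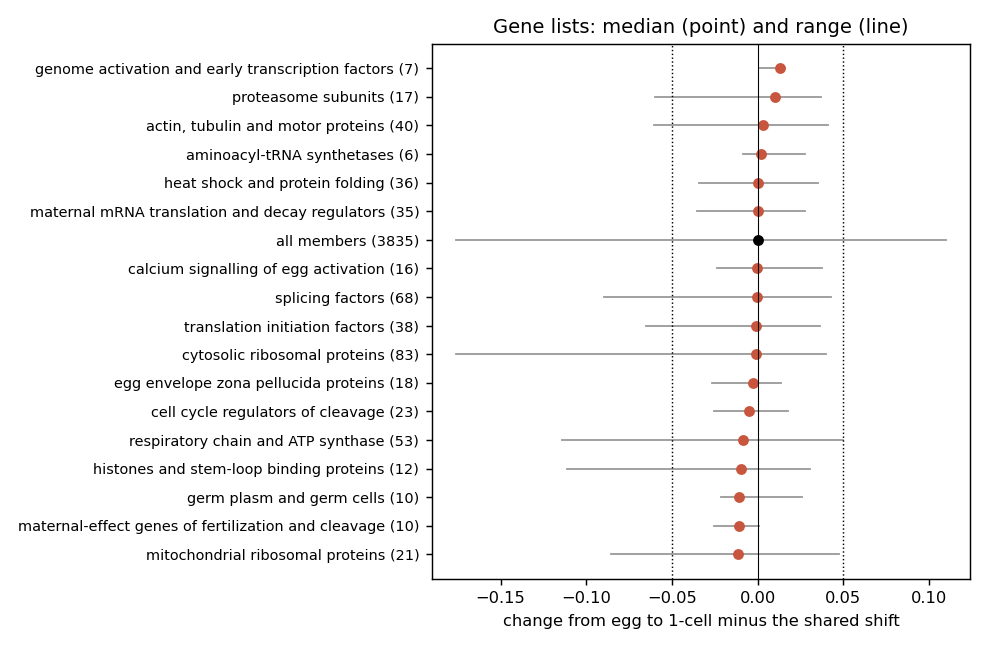
Change from egg to 1-cell minus the shared shift (x axis, reactivity units) for each gene list, with the number of transcripts in brackets, the median as a point, and the lowest to highest transcript as a line. The medians lie between -0.0113 and 0.0132, and the dotted lines mark the limits of 0.05 that 0 listed transcripts passed upward.

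The abundance of the same transcripts later in development is a readout the calls did not use. The classes already differed in the egg profile, with medians of 34.7 RPKM for opened, 65.8 for closed and 62.4 for all. RNA-seq was of whole embryos titled control, with 2 libraries at 2 h and 2 at 6 h. The study injected control embryos of its knockdown with a control morpholino oligonucleotide. The titles do not say whether the embryos of these libraries were injected. The 14 opened transcripts had a median of 27.1 RPKM in both libraries at 2 h. The 61 of 67 closed ones listed there had 72.7 and 71.6, and the 3751 of all had 68 and 67.6. From the earlier to the later time, log2(RPKM + 1) differed by a median of -0.71 for opened (range over the 4 pairings of libraries -0.77 to -0.68), -1.1 for closed (-1.15 to -1.05) and -1 for all (-1.01 to -1). 13 of 14 opened, 45 of 61 closed and 2872 of 3751 transcripts in all were lower at the later time. Single transcripts went both ways: h2af1al had 2635 and 2741 RPKM at 2 h and 76.1 and 81.4 at 6 h, while rpl24 had 648 and 653 and then 1338 and 1367. The groups of 14 and 67 are small, and no test of the difference between them was run.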

How the data were processed

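icSHAPE and RNA-seq values were used as deposited. Per the study's methods, the authors trimmed reads with cutadapt and Trimmomatic and collapsed PCR duplicates. They aligned reads with Bowtie2 to the RefSeq transcriptome of build Z10 and combined replicates. Reverse transcription stops were scaled in windows of 200 nt moved by 30 nt. The divisor in each window was the mean of the stops between the 90th and the 95th percentile. The deposited reactivity is a fraction from 0 to 1, and a nucleotide without enough reads has no value. The read depth behind a value is unknown. The deposited level in each profile and in the RNA-seq tables is an RPKM computed by the authors, the latter from reads of mapping quality 20 or more.

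From these, mean differences over nucleotides valued in both profiles were computed with Python 3.11.15 and NumPy 2.4.6, and the median over transcripts, nucleotides or windows was subtracted. Limits were 0.05 for transcripts and 0.2 for nucleotides and for 10-nt windows with at least 8 values. Named transcripts were the 12 highest and 12 lowest with at least 500 valued nucleotides and 20 RPKM in both profiles, 1 per symbol (the one with most valued nucleotides), the 10 highest and 10 lowest full windows in transcripts of at least 100 RPKM, and, in each gene list, the 2 highest, the 2 lowest and those past 0.05. Members and lists were chosen with earlier results of these data known. Gene symbols came from RefSeq (GRCz12tu) for 3791 of 3835 transcripts. Bases, coding regions and untranslated regions were not analysed here. The code for the calls was run on simulated profiles, made from egg values with a constant shift, known changes and independent noise. These lacked the limits at 0 and 1, the window scaling and the dependence of neighbouring nucleotides, so they give no rate of false calls here. Other thresholds, filters and scalings were tried. Later levels used log2(RPKM + 1), with a transcript absent from a table taken as 0 at 6 h. Results for 2 genes are not reported here.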

Additional observations from a re-analysis of the deposited data

How the results depend on the processing

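Counts of opened and closed transcripts depended on the limit and the filter. The 14 opened and 67 closed became 108 and 252 at a threshold of 0.03, 2 and 7 at 0.1, and 6 and 38 with over 80% of nucleotides valued. A straight-line fit on the egg mean gave 6 opened, and there were 0 opened and 17 closed among the 2898 transcripts with 4 to 6% of nucleotides at 1 in both profiles, an alternative chosen after seeing the data. Of nucleotides, 6.55% opened and 6.18% closed past 0.3. Of windows, 12.2% and 10.3% did so past 0.1, 0.224% and 0.177% past 0.3, and 4.405% and 0.515% past 0.2 without centring. Other filters, quantile matching and window starts left these counts within 1.5 times. No named transcript changed sign in the 236 values listed over the settings, of which 9 moved by more than the SD over transcripts. The thresholds of 0.03 and 0.1 leave a transcript's value as it is. Filters on transcripts alter only the shared shift that is subtracted. Many of the 236 values therefore could not move, and the count is no measure of stability. The centred change ranged from 0.0324 to 0.0354 in the first 100 nt and, from -0.0108, reached -0.018 in the last 100 nt under quantile matching. The sign of the list median differed between settings in 8 of the 17 lists, among them cytosolic ribosomal proteins (-0.00989 to 0.00241) and zona pellucida genes (-0.0082 to 7.5e-05). For the later level of closed transcripts, a pseudocount of 0.1 gave -1.25. Leaving out each RNA-seq library in turn gave -0.77 to -0.69 for opened and -1.13 to -1.05 for closed. No paired analysis was possible because each stage has 1 pooled profile and no test was run. The cause of these differences was not tested.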
